A study of Mus musculus with 6 samples.

Results

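The 8 genes Kcnq1, Kcne1, Kcnj10, Kcnj16, Slc12a2, Bsnd, Cldn11 and Esrrb were examined in the cochlea of young and old mice. They were taken as a fixed list of strial potassium and chloride channel subunits, the cotransporter NKCC1, a barrier claudin and a transcription factor, and they are 8 of 25419 genes in the table. All 8 had a mean level above the filter and were tested among 19465 genes. The samples came from C57BL/6 mice, a strain known for early hearing loss, for which the labels name no treatment and which were 1 month old (young) or 12 months old (old). Each group held 3 samples, and each sample was RNA mixed from the tissue of 3 mice. P-values therefore measure the spread between mixed samples. The sample labels name the cochlea as the tissue, the extraction protocol names the dissected basilar membrane, and the study asked which RNAs differ between the ages.

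The stria vascularis is a layered epithelium on the outer wall of the cochlear duct. It secretes potassium into the endolymph and holds the fluid at a positive voltage, the endocochlear potential, which drives the current through hair cells. Marginal cells take up potassium, sodium and chloride from the intrastrial fluid through NKCC1, return chloride through channels that need barttin and pass potassium to the endolymph through the KCNQ1/KCNE1 channel. Kir4.1 of the intermediate cells generates the voltage, and claudin 11 of the basal cells seals the layer off from the spiral ligament.

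Levels are FPKM, the fragments per kilobase of transcript scaled to sequencing depth, summed over the transcripts of a gene. How samples were scaled to each other is not given in the sources used here. The depth estimated from the levels was 12280000 to 15410000 fragments per sample, and it depends on that scaling. Genes of the lateral wall were present in all samples although the extraction protocol names the basilar membrane. The intermediate cell (melanocyte) list summed to 795 to 1260 FPKM in the young and 1087 to 1204 FPKM in the old samples, and the list of spiral ligament fibrocytes to 10743 to 13130 and 9006 to 9357 FPKM. The vestibular and otoconial list stayed between 3.14 and 5.08 FPKM. In bulk tissue, fewer cells of a type and less RNA per cell cannot be told apart. Cells outside the stria also express some of the genes examined. Among them are fibrocytes, neurons and glia for Slc12a2, glia and supporting cells for Kcnj10, and vestibular dark cells for Kcnq1 and Kcne1. The part of these cells in the levels was not tested. These examples are not a complete list, and which cells of the tissue carried the level of Kcnj16 was not tested either.

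Of the 8 genes, only Kcnj16 passed the test across all genes (limma, adjusted p under 0.05), and it was higher in the old samples. The background was 5.65% of all genes called higher and 3.81% called lower in old samples. In 3 genes, Kcnj16, Bsnd and Cldn11, the lowest old sample exceeded the highest young sample, which held for 17.6% of all genes. In 0 genes the highest old sample was under the lowest young sample, which held for 16.1% of all genes. The groups overlapped for Kcnq1, Kcne1, Kcnj10, Slc12a2 and Esrrb. At an unadjusted limma p under 0.05, 4 of the genes were higher (14.6% of all genes) and 0 were lower (13.1%). The median log2 change of the 8 genes was 0.29, beside 0.0088 over all genes tested.

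**Figure D1:**
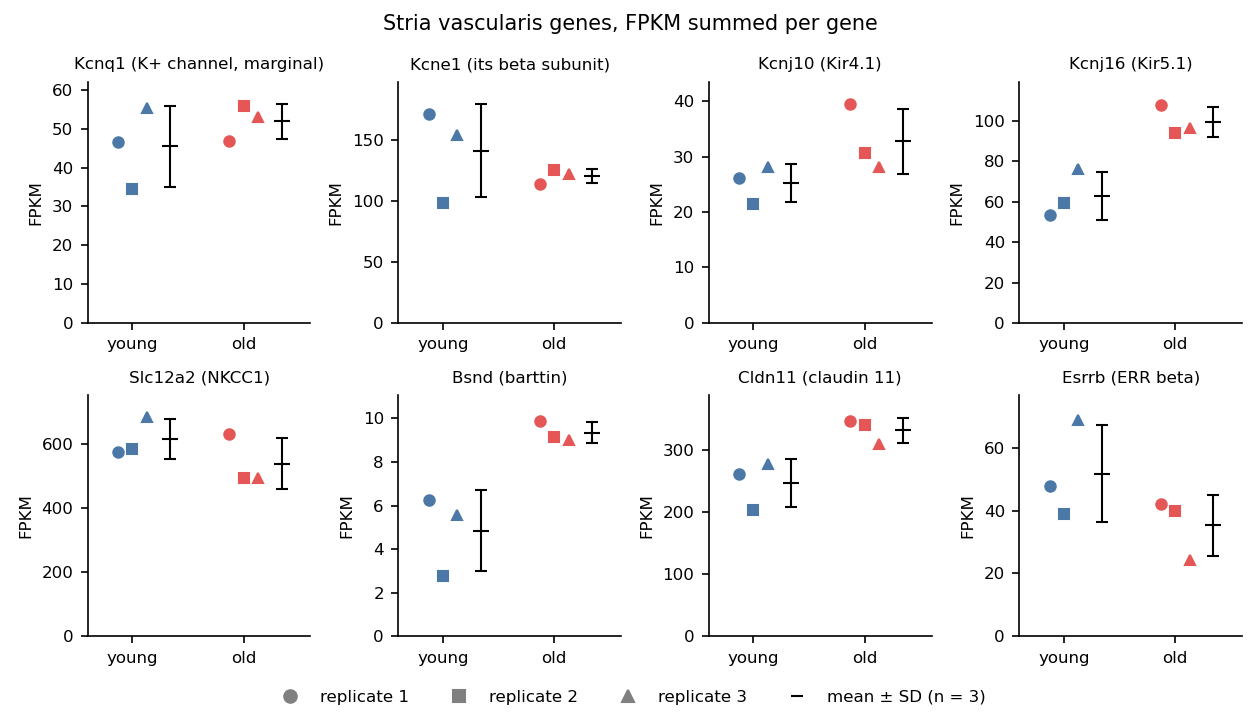
FPKM per gene (y axis, starting at 0) in the 3 young (blue) and 3 old (red) samples, with a symbol per replicate and the mean ± SD as a black bar. The old samples sit above all young samples for Kcnj16, Bsnd and Cldn11, and young replicate 2 is the lowest young sample for 6 of the 8 genes.

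The mean levels over all 6 samples spanned from 7.09 FPKM for Bsnd to 577 FPKM for Slc12a2. By mean level Slc12a2 was at percentile 99.4 of all genes tested, Cldn11 (289 FPKM) at 98.8 and Kcne1 (131 FPKM) at 97.1. They were followed by Kcnj16 (81.2 FPKM), Kcnq1 (48.7 FPKM), Esrrb (43.5 FPKM) and Kcnj10 (29.0 FPKM), and Bsnd was at percentile 53.5. In this order, the samples of Kcne1 and Kcnj16, of Kcnj16 and Kcnq1, of Kcnq1 and Esrrb, and of Esrrb and Kcnj10 overlapped. The samples of Slc12a2, Cldn11 and Kcne1 did not overlap with each other, and all samples of Bsnd lay below all other members.

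The first pair forms the channel that passes potassium into the endolymph. Kcnq1 (ENSMUSG00000009545), the pore subunit, lies on chromosome 7 from 143106362 to 143427042 (GRCm38, plus strand). Its level was 46.6, 34.5 and 55.3 FPKM in young replicates 1 to 3 and 46.9, 55.9 and 52.9 FPKM in old replicates 1 to 3. The old samples lay within or just above the young range, with means of 45.5 ± 10.4 and 51.9 ± 4.59 FPKM (SD, n = 3). The log2 change was 0.21 (SE 0.17, limma adjusted p = 0.449), with a 95% confidence interval from -0.17 to 0.60. Without young replicate 2 it was 0.028, and without young replicate 3 it was 0.37. With transcripts of at least 1000 nt only, the log2 change of Kcnq1 was 0.14 (limma adjusted p = 0.559). That setting leaves out Kcnq1-207 (282 nt), which was above 0 only in old replicates 2 and 3.

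Kcne1 (ENSMUSG00000039639), the beta subunit that slows the opening of the channel, lies on chromosome 16 from 92345982 to 92359468 (minus strand). Its level was 171, 98.4 and 154 FPKM in the young samples and 114, 125 and 122 FPKM in the old samples. All old samples lay inside the young range, and the young samples were more spread (141 ± 37.9 against 120.3 ± 5.92 FPKM, SD, n = 3). The log2 change was -0.19 (SE 0.19, limma adjusted p = 0.552), with a 95% confidence interval from -0.63 to 0.25. It ranged from -0.032 without young replicate 1 and -0.11 without young replicate 3 to -0.43 without young replicate 2 (limma adjusted p = 0.0564).

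Most of the Kcne1 level came from a transcript of 602 nt, Kcne1-202, with 87.3% of the gene in young and 85.3% in old samples. FPKM of so short a transcript depend strongly on the length correction. The longer Kcne1-201 (3174 nt) stood at 18.0 ± 6.10 FPKM in young and 17.6 ± 1.01 FPKM in old samples (SD, n = 3). With transcripts of at least 1000 nt only, the log2 change of Kcne1 was 0.0217 in place of -0.19.

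The ratio of Kcne1 to Kcnq1 within a sample does not depend on the scaling between samples. It was 3.67, 2.85 and 2.78 in the young samples and 2.43, 2.24 and 2.30 in the old samples. Every old sample had a lower ratio than every young sample, with means of 3.10 ± 0.494 and 2.32 ± 0.0943 (SD, n = 3). The log2 difference was -0.40 (exact permutation test, two-sided p = 0.1). This is the smallest p that 3 samples against 3 allow, and it was 0.225 after adjustment over the 9 ratios examined. With transcripts of at least 1000 nt only, the log2 difference of this ratio was -0.12, and the groups overlapped.

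The potassium channels of the inwardly rectifying family came next. Kcnj10 (ENSMUSG00000044708) encodes Kir4.1, the channel of the intermediate cells that is required for the endocochlear potential, and lies on chromosome 1 from 172341210 to 172374085 (plus strand). Its level was 26.1, 21.4 and 28.1 FPKM in the young samples and 39.4, 30.7 and 28.1 FPKM in the old samples. Old replicate 3 lay just under young replicate 3, so the groups overlapped. The means were 25.2 ± 3.45 and 32.7 ± 5.93 FPKM (SD, n = 3). On the log2 scale the change was 0.37 (SE 0.15, limma adjusted p = 0.164), with a 95% confidence interval from 0.017 to 0.72, and it was 0.23 without old replicate 1. Its single transcript starts at 172341210, and the 250 bases before this start are shown for comparison with the other channel gene of the family.
Kcnj10, chr1:172340960-172341209, plus strand: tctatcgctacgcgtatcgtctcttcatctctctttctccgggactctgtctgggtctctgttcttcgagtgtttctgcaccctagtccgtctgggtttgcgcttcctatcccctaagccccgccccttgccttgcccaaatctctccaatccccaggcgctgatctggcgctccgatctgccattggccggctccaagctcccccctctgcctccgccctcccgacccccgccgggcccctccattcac

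Kcnj16 (ENSMUSG00000051497) encodes Kir5.1, which forms channels together with Kir4.1, and lies on chromosome 11 from 110968033 to 111027968 (plus strand). Its level was 53.5, 59.2 and 76.1 FPKM in the young samples and 108, 94.0 and 96.4 FPKM in the old samples. The lowest old sample was above the highest young sample, with means of 62.9 ± 11.8 and 99.4 ± 7.40 FPKM (SD, n = 3). Kcnj16 rose 1.59-fold. On the log2 scale the change was 0.67 (SE 0.13, limma adjusted p = 0.0273), with a 95% confidence interval from 0.37 to 0.98. The exact permutation test gave its smallest two-sided p of 0.1. The call depended on the samples: with any sample but young replicate 3 left out, the limma adjusted p was 0.0602 to 0.0873, and without young replicate 3 it was 0.00874. Over these 6 fits the log2 change stayed between 0.56 and 0.82. The call was also lost with no filter on low values (limma adjusted p = 0.104) and without the variance trend (limma adjusted p = 0.0858).

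The table holds 6 transcripts of Kcnj16, and one of them carried most of the gene. Kcnj16-205 (ENSMUST00000178798, 3678 nt) starts at 111023860 and made up 89.7% of the level in young and 88.3% in old samples. Its level was 48.4, 53.8 and 66.7 FPKM in the young samples and 85.9, 88.7 and 87.9 FPKM in the old samples. The groups did not overlap, and the log2 change was 0.65 (limma adjusted p = 0.0663 over 38764 transcripts). Kcnj16-202, which starts 5′ of it at 110968033, was low and variable, with 0.618, 3.58 and 1.19 FPKM in the young and 11.9, 3.12 and 4.20 FPKM in the old samples. Its highest sample was old replicate 1, and the groups overlapped.

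The sequences before both of these starts are shown because nearly the whole signal of the gene that rose belonged to one of them (RefSeq windows, GRCm38.p6, 5′ to 3′, ending at the base before the start).
Kcnj16-205, chr11:111023610-111023859, plus strand: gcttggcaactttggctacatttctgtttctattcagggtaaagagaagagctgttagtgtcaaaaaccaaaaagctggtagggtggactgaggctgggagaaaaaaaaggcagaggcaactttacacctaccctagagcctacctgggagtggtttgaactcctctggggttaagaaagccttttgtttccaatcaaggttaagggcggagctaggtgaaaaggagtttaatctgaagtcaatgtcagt
Kcnj16-202, chr11:110967783-110968032, plus strand: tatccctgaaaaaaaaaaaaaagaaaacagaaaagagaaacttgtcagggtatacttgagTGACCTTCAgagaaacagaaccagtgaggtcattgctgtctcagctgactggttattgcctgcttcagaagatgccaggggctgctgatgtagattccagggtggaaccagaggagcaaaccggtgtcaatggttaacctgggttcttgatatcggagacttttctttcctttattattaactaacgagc
The capitals mark the only match to an estrogen-related receptor element in the 8 windows of these genes. The motif TNAAGGTCA, the half-site bound by the receptor family that includes Esrrb, was found there on the minus strand, from 110967843 to 110967851, at position -190 relative to the start. Searched on both strands, it is present in 1.14% of all 32851 windows of this length. TCAAGGTCA, a stricter form that is contained in it, is present in 0.387% of all windows and in 0 of the 8. The E-boxes CATGTG (12.3% of all windows) and CACGTG (6.02%), which MITF of the melanocyte lineage can bind, were in 0 of the 8. The windows had 44.8% GC before Kcnj16-205, 42.8% GC before Kcnj16-202 and 62.0% GC before Kcnj10. Windows were given for Kcnj10, Kcnj16, Cldn11 and Esrrb, which are 4 of the 8 genes. Kcnj16 had more of the 8 windows than any other gene, so a match was more likely to fall in it. Among them was a window before 111019585, where none of its measured transcripts starts.

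The ratio of Kcnj16 to Kcnj10 was 2.05, 2.77 and 2.71 in the young samples and 2.74, 3.06 and 3.43 in the old samples. Old replicate 1 lay between the young samples, and the log2 difference of 0.30 gave p = 0.2 in the exact permutation test (two-sided, 0.257 after adjustment). This test did not separate the change of Kcnj16 from that of its partner. Relative to Kcnq1 the log2 differences were 0.46 for Kcnj16 (exact p = 0.2) and 0.16 for Kcnj10 (exact p = 0.7), and the groups overlapped in both ratios.

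Slc12a2 (ENSMUSG00000024597) encodes NKCC1, the cotransporter that loads the marginal cells with potassium and chloride, and lies on chromosome 18 from 57878678 to 57946821 (plus strand). Its level was 576, 584 and 686 FPKM in the young samples and 629.9, 493 and 493 FPKM in the old samples. Old replicate 1 lay inside the young range, while the other old samples were lower than all young samples. The means were 615 ± 61.2 and 539 ± 79.1 FPKM (SD, n = 3). On the log2 scale the change was -0.20 (SE 0.12, limma adjusted p = 0.322), with a 95% confidence interval from -0.47 to 0.078. It was -0.32 without old replicate 1, -0.12 without young replicate 3 and -0.38 with quantile normalization. The ratio of Slc12a2 to Kcnq1 had a log2 difference of -0.41 (exact permutation p = 0.3).

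Bsnd (ENSMUSG00000025418) encodes barttin, the subunit that brings chloride channels to the basolateral membrane, and lies on chromosome 4 from 106483456 to 106492283 (minus strand). Its level was 6.25, 2.75 and 5.55 FPKM in the young samples and 9.89, 9.14 and 9.00 FPKM in the old samples. The groups did not overlap, and young replicate 2 was the lowest sample. The means were 4.85 ± 1.85 and 9.34 ± 0.479 FPKM (SD, n = 3), with a log2 change of 1.01 (SE 0.29) that missed the threshold (limma adjusted p = 0.0676, 95% confidence interval 0.35 to 1.68). Without young replicate 2 the log2 change was 0.66. With transcripts of at least 1000 nt only, which changed the set of genes tested and not Bsnd itself, the limma adjusted p of Bsnd was 0.0374. The level of this replicate corresponded to an estimated 92.9 fragments, with a counting error of 10.4%.

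The ratio of Bsnd to Kcnq1, another gene of the marginal cells, was 0.134, 0.0795 and 0.1004 in the young samples and 0.211, 0.164 and 0.1701 in the old samples. The groups did not overlap, with means of 0.105 ± 0.0275 and 0.182 ± 0.0257 (SD, n = 3). The log2 difference was 0.82 (exact permutation test, two-sided p = 0.1, 0.225 after adjustment), and it was 0.64 without young replicate 2.

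**Figure D2:**
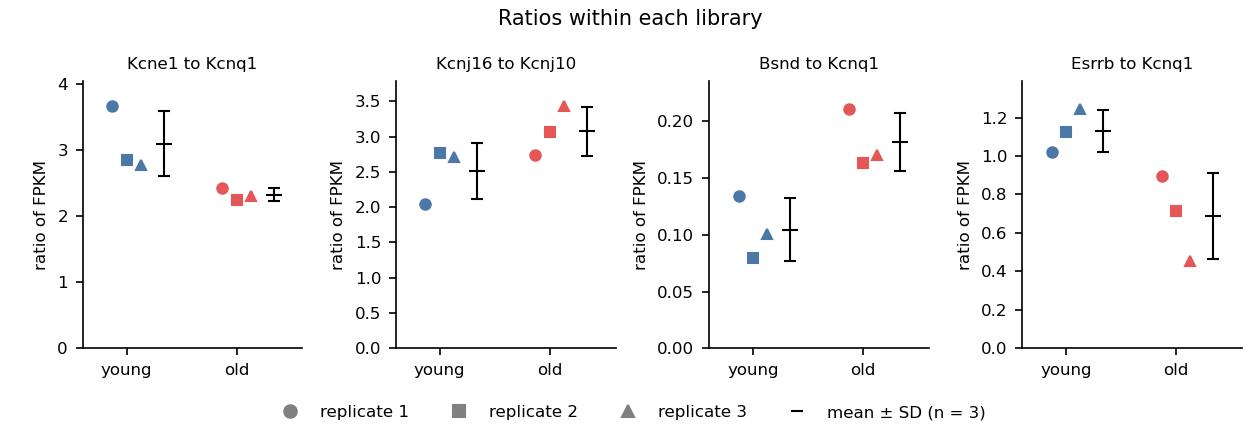
Ratios of FPKM within each sample (y axis, starting at 0) for young (blue) and old (red) samples, with a symbol per replicate and the mean ± SD (n = 3) in black. The old samples lie below all young samples for Kcne1 to Kcnq1 and Esrrb to Kcnq1, above them for Bsnd to Kcnq1, and overlap with them for Kcnj16 to Kcnj10.

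In the plot of the ratios, the ratios of Kcne1 and Esrrb to Kcnq1 are lower in old samples, while the ratio of Bsnd to Kcnq1 is higher. The groups overlapped in 5 of the 9 ratios. The ratios to Kcnq1 share a denominator, so they are not independent of each other. How often groups overlap in ratios of other genes was not computed.

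Cldn11 (ENSMUSG00000037625) encodes the claudin of the tight junctions between basal cells, and also of myelin and other barriers, and lies on chromosome 3 from 31149920 to 31164324 (plus strand). Its level was 260.4, 203 and 277 FPKM in the young samples and 346, 339 and 308 FPKM in the old samples. The old samples were all higher than the young ones, with means of 247 ± 38.8 and 331 ± 20.2 FPKM (SD, n = 3). The log2 change of 0.44 (SE 0.12) missed the threshold (limma adjusted p = 0.0625, 95% confidence interval 0.16 to 0.71), and it was 0.30 with quantile normalization or without young replicate 2. It passed with transcripts of at least 1000 nt only (limma adjusted p = 0.0378), with arrayWeights (0.0412) and without young replicate 3 (0.0455). The ratio to Kcnq1 overlapped between groups, with a log2 difference of 0.22 (exact permutation p = 0.2).
Cldn11, chr3:31149670-31149919, plus strand: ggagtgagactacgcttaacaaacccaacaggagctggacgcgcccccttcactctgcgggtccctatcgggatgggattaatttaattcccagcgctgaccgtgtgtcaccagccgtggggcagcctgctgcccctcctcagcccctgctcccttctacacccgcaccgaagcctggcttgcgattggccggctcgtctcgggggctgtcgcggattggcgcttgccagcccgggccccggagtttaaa
This window before the single Cldn11 transcript is shown beside that of Kcnj10 because the levels of Cldn11 and Kcnj10 followed each other most closely among the 8 genes. The root mean square difference of their centred log2 levels over the 6 samples was 0.115, while the pair with the least alike levels, Bsnd and Esrrb, differed by 0.856. The Cldn11 window had 63.6% GC.

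Because claudin 11 also belongs to the myelin of oligodendrocytes, markers of myelinating cells were read beside it. The oligodendrocyte list summed to 0.337 to 7.27 FPKM in young and 0.349 to 1.54 FPKM in old samples, and its defining marker Opalin was listed at 0 in 5 of the 6 samples. The Schwann cell list summed to 510 to 770 FPKM in young and 400.2 to 402 FPKM in old samples, and 4 of its 5 genes fell and 0 rose. Pmp22, a protein of peripheral myelin, fell from 233 ± 41.7 to 159.5 ± 8.89 FPKM (SD, n = 3, log2 change -0.53, limma adjusted p = 0.0469), and Prx and Ncmap were among the others. Egr2, a transcription factor of myelinating Schwann cells, did not pass the test and stood at 6.75 ± 2.22 FPKM in young and 10.1 ± 2.49 FPKM in old samples (log2 change 0.60, limma adjusted p = 0.221). The part of myelinating cells in the level of Cldn11 was not tested.

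Esrrb (ENSMUSG00000021255) encodes estrogen-related receptor beta, an orphan nuclear receptor that regulates ion transport genes of marginal cells, and lies on chromosome 12 from 86361117 to 86521628 (plus strand). Its level was 47.7, 38.8 and 68.8 FPKM in the young samples and 42.1, 39.8 and 24.1 FPKM in the old samples. The highest level was in young replicate 3 and the lowest in old replicate 3, and the other samples overlapped. The means were 51.7 ± 15.4 and 35.3 ± 9.76 FPKM (SD, n = 3). On the log2 scale the change was -0.55 (SE 0.26, limma adjusted p = 0.2255), with a 95% confidence interval from -1.17 to 0.067. Without old replicate 3 the log2 change was -0.30, and without young replicate 3 it was -0.32.

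Relative to Kcnq1 the groups of Esrrb did not overlap. The ratio was 1.02, 1.12 and 1.25 in the young samples and 0.898, 0.712 and 0.456 in the old samples. The log2 difference was -0.76 (exact permutation test, two-sided p = 0.1, 0.225 after adjustment), and it was -0.49 without old replicate 3.

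The Esrrb transcripts were not alike. Esrrb-203, which starts at 86421644, made up 60.7% of the gene in young and 62.0% in old samples, and its groups overlapped (31.4 ± 9.06 and 21.8 ± 6.48 FPKM, SD, n = 3). Esrrb-206, which starts at 86470117, was 14.3, 8.63 and 16.1 FPKM in the young and 8.45, 3.73 and 3.98 FPKM in the old samples. The old samples of Esrrb-206 were all lower than the young ones (log2 change -1.31, limma adjusted p = 0.146). Esrrb-202 was lower in all old samples as well, at 1.04 ± 0.230 FPKM in young and 0.196 ± 0.120 FPKM in old samples (limma adjusted p = 0.125).

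Esrrb-204, from the 5′-most start at 86361117, was in the other direction. It was 0.000160, 0.548 and 0.000201 FPKM in the young samples and 2.78, 0.966 and 1.27 FPKM in the old samples. The groups did not overlap, and the limma adjusted p was 0.148. Both starts with a RefSeq window are shown because the transcripts that begin at them had changes of opposite sign, none of them past the threshold.
Esrrb-204, chr12:86360867-86361116, plus strand: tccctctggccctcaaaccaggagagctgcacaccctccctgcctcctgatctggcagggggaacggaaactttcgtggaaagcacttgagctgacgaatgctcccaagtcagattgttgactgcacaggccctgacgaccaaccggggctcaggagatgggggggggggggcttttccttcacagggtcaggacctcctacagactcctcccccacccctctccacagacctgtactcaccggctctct
Esrrb-202 and Esrrb-203, chr12:86421394-86421643, plus strand: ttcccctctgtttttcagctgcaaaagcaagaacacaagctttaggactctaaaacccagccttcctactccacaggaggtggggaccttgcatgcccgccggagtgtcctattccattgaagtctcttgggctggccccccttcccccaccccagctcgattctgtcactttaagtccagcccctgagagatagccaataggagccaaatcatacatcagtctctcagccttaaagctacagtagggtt
The first window had 60.8% GC and the second 52.0% GC.

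**Figure D3:**
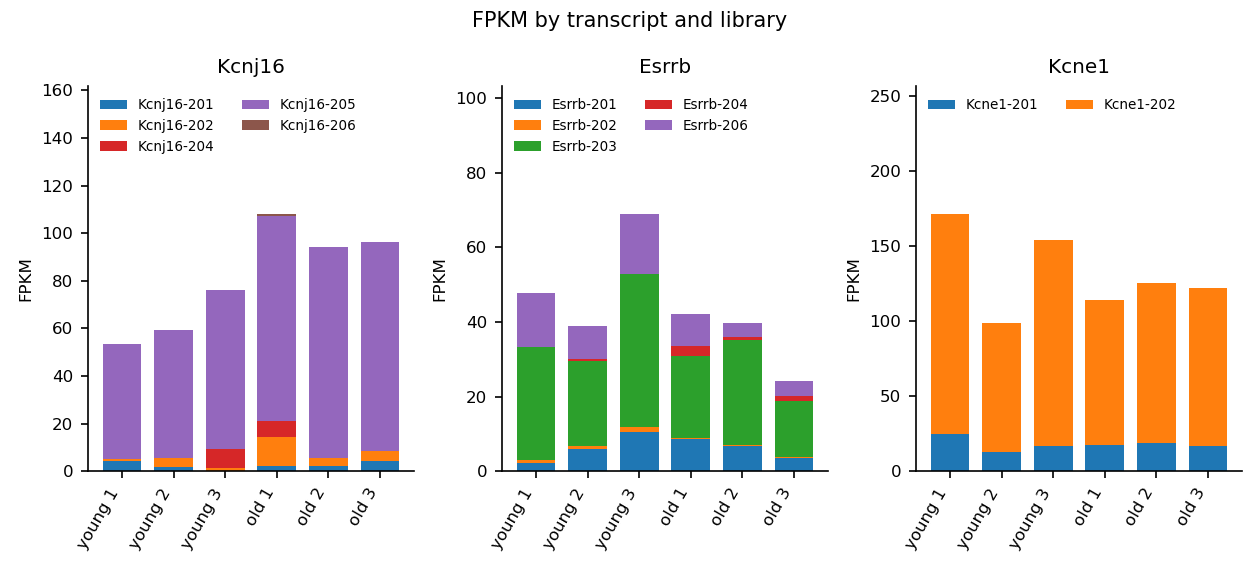
FPKM by transcript (stacked bars, y axis starting at 0) in each of the 6 samples for Kcnj16, Esrrb and Kcne1. Kcnj16-205, Esrrb-203 and Kcne1-202 make up most of their genes in both age groups, and Esrrb-206 is smaller in the old samples.

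Over all 8 genes the table holds 24 transcripts, and 20 of them passed the filter on low values. At an adjusted limma p under 0.05, 0 were called higher and 0 lower, where 0.549% and 0.199% of all transcripts were. The groups did not overlap for 4 transcripts that were higher in old samples (12.5% of all transcripts) and for 2 that were lower (11.9%). At an unadjusted p under 0.05, 6 were higher (9.05% of all transcripts) and 2 were lower (7.98%). FPKM share fragments between transcripts of a gene by estimation, so the gene sums are firmer than the single transcripts. Kcnq1-201 made up 95.9% of Kcnq1 in young and 91.7% in old samples, and a transcript of 282 nt, Kcnq1-207, was above 0 only in old replicates 2 and 3 (6.20 and 4.35 FPKM). The span of Kcnq1 also holds the antisense gene Kcnq1ot1, a long noncoding RNA of the imprinted domain, at 4.79 to 6.67 FPKM. The libraries were directional, but the strand setting of the counting is not given in the sources used here, so whether fragments of Kcnq1 and of its antisense partner were kept apart is not known.

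Most of the 8 genes had the same lowest or the same highest young sample. Young replicate 2 was the lowest young sample for 6 of the 8 genes, whereas this held for 33.6% of 14985 genes with a mean of at least 1 FPKM. Young replicate 3 was the highest young sample for 6 of the 8 genes, against 36.0% of these genes. The coefficient of variation was larger in the young than in the old samples for 6 of the 8 genes, against 55% of these genes. Young replicate 2 also had the lowest sum of the intermediate cell list, 795 FPKM against 1042 and 1260 FPKM in the other young samples, and the highest sum of the fibrocyte list, 13130 against 11745 and 10743 FPKM. The part of these sums in the values of young replicate 2 was not tested. Without young replicate 2 the median log2 change of the 8 genes was 0.14.

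Other genes that act in the endocochlear potential were read beside the 8 genes. Of 11 partner genes 1 rose and 0 fell, with a median log2 change of 0.11. Slc26a4, which encodes the anion exchanger pendrin of spindle and root cells, was 95.3, 94.1 and 113 FPKM in the young samples and 249, 209.9 and 226 FPKM in the old samples. The old samples were all above the highest young sample, and Slc26a4 rose by 1.18 on the log2 scale (SE 0.10, limma adjusted p = 0.00536). It passed in all 18 alternatives in which it was refitted, while the other list genes said to rise or fall passed in 8 (Kcnj2) to 16 (Car3 and Adgre1) of theirs. Gjb6, which encodes connexin 30 of the cochlear gap junctions, stood at 643 ± 37.6 and 669 ± 28.9 FPKM (log2 change 0.06, limma adjusted p = 0.626).

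**Figure D4:**
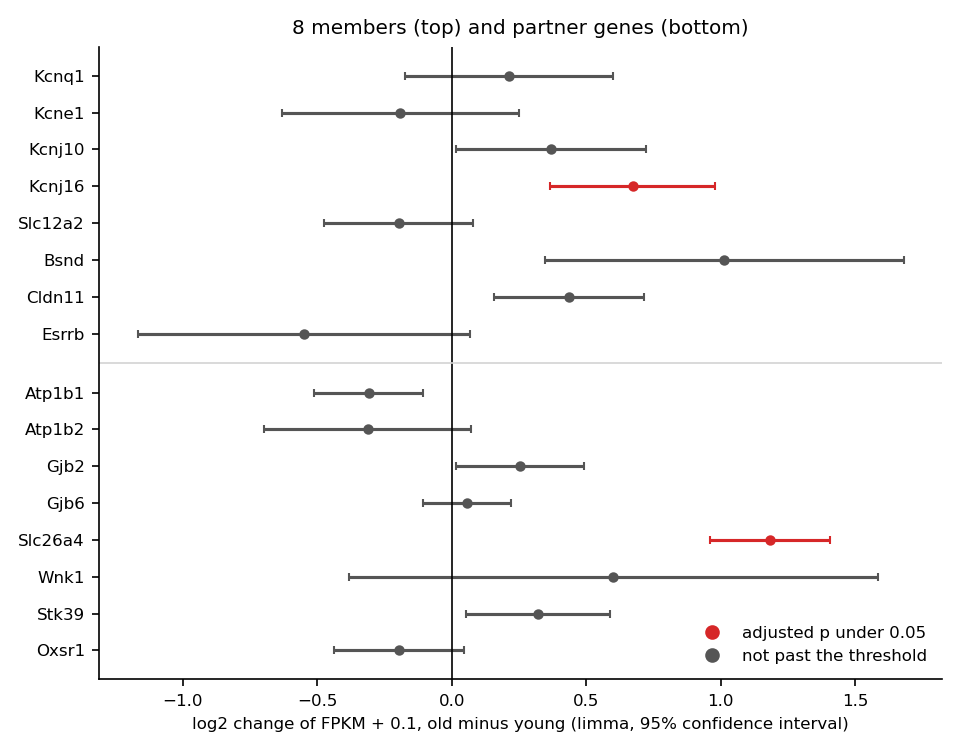
Log2 change of FPKM + 0.1 between old and young samples (x axis) for the 8 genes and 8 of the partner genes, with limma 95% confidence intervals; red marks an adjusted p under 0.05. Kcnj16 (0.67) and Slc26a4 (1.18) are red, and the intervals of Kcnq1, Kcne1, Slc12a2 and Esrrb include 0.

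Further genes of the marginal cells gave 1 called higher and 0 lower of 6, with a median log2 change of 0.16. Lmx1a, a transcription factor of the inner ear, rose from 19.8 ± 4.13 to 31.0 ± 3.46 FPKM (SD, n = 3, log2 change 0.66, limma adjusted p = 0.0448). Abcg1, a sterol transporter, stood at 35.5 ± 3.19 and 32.0 ± 1.69 FPKM, and Wnk2, a kinase, at 27.9 ± 0.833 and 29.1 ± 1.46 FPKM. Of 7 genes of the intermediate cells 0 rose and 1 fell, with a median log2 change of 0.14. The one was Kcnj13, which encodes the inward rectifier Kir7.1 and went from 44.3 ± 6.35 to 27.8 ± 3.97 FPKM (log2 change -0.67, limma adjusted p = 0.0306). Dct, a melanin synthesis enzyme, stood at 784 ± 176 and 862 ± 47.6 FPKM, and Mlana, a melanosome protein, at 128 ± 40.7 and 191 ± 18.0 FPKM, neither past the threshold.

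Of 11 tested tight junction genes, beside Cldn11, 3 rose and 1 fell, with a median log2 change of 0.15. Cldn9 rose from 116 ± 21.8 to 189 ± 16.8 FPKM (log2 change 0.71, limma adjusted p = 0.0253), and Cldn3 from 26.2 ± 6.20 to 43.3 ± 1.01 FPKM (0.75, limma adjusted p = 0.0319). Cldn8 rose from 50.7 ± 5.98 to 68.7 ± 4.87 FPKM (0.44, limma adjusted p = 0.0390). These 3 claudins seal the epithelia of the cochlear duct. Tjp1, the scaffold protein ZO-1, fell from 49.1 ± 2.34 to 37.0 ± 2.48 FPKM (-0.41, limma adjusted p = 0.0258). With only its most abundant transcript the log2 change of Tjp1 was -0.26 (limma adjusted p = 0.185), and with transcripts of at least 1000 nt only it was -0.25 (limma adjusted p = 0.0642).

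Relatives of the 8 genes were read to see whether a change was shared within a family. Of 16 relatives 0 rose and 3 fell, with a median log2 change of -0.16. Kcnj2, the inward rectifier Kir2.1, which begins at 111066164 on chromosome 11, 3′ of Kcnj16, fell from 4.51 ± 0.266 to 1.92 ± 0.802 FPKM (log2 change -1.27, limma adjusted p = 0.0422). Kcnq3, a subunit of the neuronal M current, fell from 2.40 ± 0.183 to 0.944 ± 0.146 FPKM (log2 change -1.27, limma adjusted p = 0.0210, and -0.81 with a pseudocount of 1). Esrra, a relative of Esrrb, stood at 61.0 ± 2.75 and 51.0 ± 4.27 FPKM and did not pass the threshold.

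Markers of other cells in the tissue moved between the groups and were read as whole lists. Of 6 macrophage markers 3 rose (Cd68, Adgre1 and Csf1r) and 0 fell, and the sum was 16.8 to 24.0 FPKM in young and 43.7 to 52.7 FPKM in old samples. Of 6 hair cell markers 0 rose and 2 fell (Ocm and Slc26a5, with Otof at 6.80 ± 1.26 and 5.33 ± 0.295 FPKM), and the sum was 114 to 203 FPKM in young and 65.7 to 89.0 FPKM in old samples. Of 5 fibrocyte markers 1 rose (Car3) and 1 fell (Coch, with a log2 change of -0.60 that was -0.25 with quantile normalization), and Otos stood at 3064 ± 309 and 2800.5 ± 126 FPKM. Of 4 tested oligodendrocyte markers, 6 satellite glia and astrocyte markers and 3 tested vestibular markers, 0 passed the test in either direction. Among them were Glul (1329 ± 83.0 and 1297 ± 144 FPKM), Otop1, Otol1, Mobp and Mog, and the last 4 stood under 4 FPKM on average in both groups. The part of these cell types in the values of Kcnj16, Bsnd and Cldn11 was not tested.

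**Figure D5:**
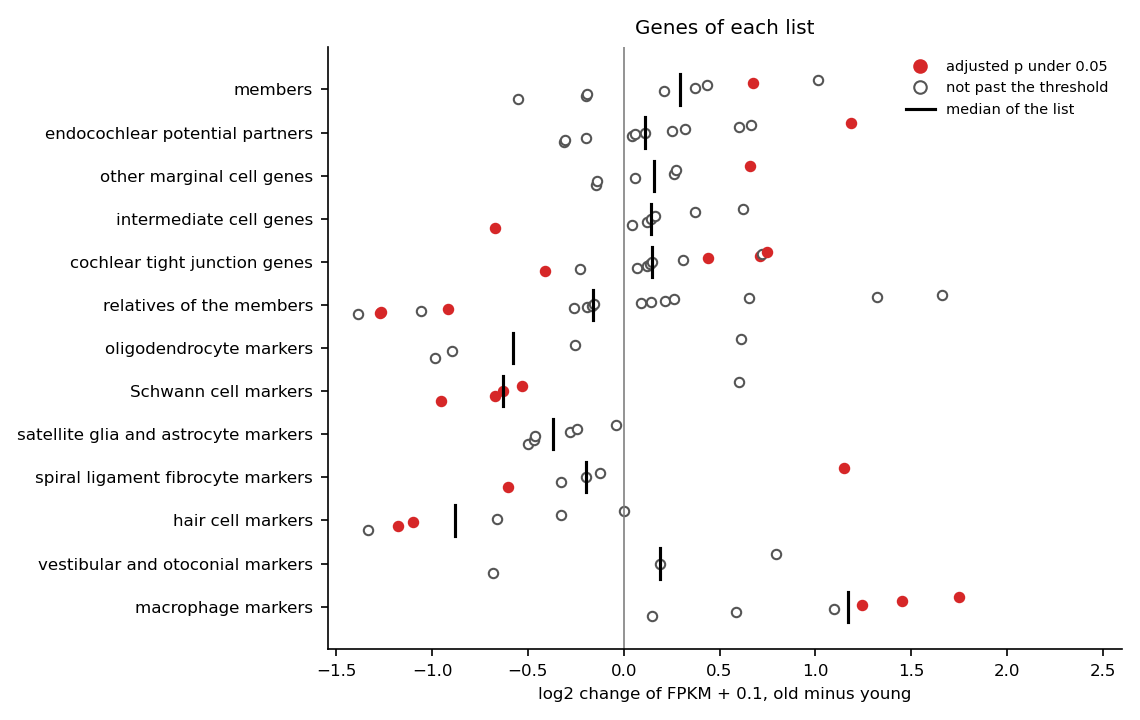
Log2 change of FPKM + 0.1 between old and young samples (x axis) for each gene of the lists (y axis); filled red circles passed the adjusted threshold and black lines mark the list medians. The 8 genes have a median of 0.29, the 4 Schwann cell genes that passed lie below 0 and the 3 macrophage genes that passed lie above 0.

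The genes with levels most like those of each member were sought among 14984 genes, by the root mean square difference of centred log2 levels over the 6 samples. For Kcnj16 they were Plet1 (0.0582), with 8.49, 9.23 and 12.8 FPKM in young and 17.4, 15.5 and 17.1 FPKM in old samples, and Chmp4c (0.0595). For Bsnd they were Rif1 (0.0898) and the authors' own transcript LNC_000185 (0.144), and for Cldn11 Trpm4 (0.0281) and Pcdhgb5 (0.0380). Kcnj10 was closest to Ccdc191 and Adgrg6 (0.0360 and 0.0361), Kcnq1 to Bpgm (0.0418) and Cep250 (0.0645), and Kcne1 to Tnip1 (0.0721) and Spice1 (0.0882). Slc12a2 was closest to Pgp (0.0340) and LNC_000581 (0.0398), and Esrrb to A430018G15Rik (0.1500) and Ntn5 (0.155). The median difference to all genes was 0.263 for Slc12a2, the lowest of the 8, and 0.654 for Bsnd, the highest.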

How the data were processed

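RNA of the cochlea was measured in 6 samples, 3 per age group, grouped by their labels. According to the methods and the submitters' processing notes, the authors made directional libraries and used CASAVA 1.8, TopHat2 2.0.9, GRCm38, Cufflinks 2.1.1 and Cuffdiff 2.1.1, and deposited FPKM per transcript and sample in 1 table. The annotation release, the strand setting and the scaling between libraries are not given in the sources used here. The table has no count column. The spacing of low FPKM values gave the depth: 93.3% to 94.8% of the values used per sample came within 0.1 of a whole fragment after 260 to 300 nt were taken off the lengths.

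Transcripts (55275 of 55679 Ensembl transcripts) were matched to GENCODE M21 and summed per gene. The age groups were compared by limma 3.58.1 in R 4.3.3 (lmFit, eBayes with trend) on log2(FPKM + 0.1), for features whose mean reached 0.1 FPKM, and p was adjusted by the Benjamini-Hochberg method over all of them, with a threshold of 0.05. A fold change on this scale understates the change of low genes. Ratios and single genes were compared by exact permutation tests (scipy 1.17.1), whose smallest two-sided p is 0.1. A counting error, where given, covers counting alone. The code was tested on simulated data. Python 3.11.15 was used, with promoter windows from RefSeq (GRCm38.p6).

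The 8 genes and the lists were chosen with earlier results of these data known. Named are the 8 genes with their transcripts, from each list the genes past the threshold (the 4 largest changes at most) and the 2 with the highest mean, and for each of the 8 genes the 2 most alike genes. The cell type and family lists covered potential partners, marginal, intermediate and tight junction genes, relatives, and oligodendrocyte, Schwann, glial, fibrocyte, hair cell, vestibular and macrophage markers. The alternatives changed the pseudocount, filter, scaling, variance trend, sample weights, replicate block, each sample left out, transcripts summed, adjustment and minimum change. The limit of 1000 nt was added after the values had been seen. Some genes of the lists, and 1 of the 9 ratios, are not reported here.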

Additional observations from a re-analysis of the deposited data

How the results depend on the processing

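The count of called genes among the 8 depended on the settings. It was 1 as reported, 0 with no filter, 0 without the variance trend, 0 with a 2-fold minimum, 2 with arrayWeights (Cldn11 and Kcnj16), 3 with transcripts of at least 1000 nt only (Bsnd, Cldn11 and Kcnj16, an alternative chosen after seeing the data), 4 with an unadjusted p, and 0 to 2 when 1 sample was left out. It was 2 only without young replicate 3 and 0 without any of the other samples. The count over all genes was 1840 as reported, 316 with no filter, 410 without the trend, 5403 with an unadjusted p, 664 with a 2-fold minimum and 62 (without old replicate 2) to 1771 with each sample left out. It rose to 2403 with arrayWeights and to 2620 with transcripts of at least 1000 nt only. The count of transcripts of the 8 genes was 0 as reported, 8 with an unadjusted p and 0 to 1 with each sample left out. Same-numbered young and old samples had correlations of their deviations from the group means of 0.0349, -0.0940 and 0.0410. Differently numbered samples had -0.114 to 0.0808. Whether the numbers mark pairs of samples was not tested. With the replicate block, 0 of the 8 genes and 730 genes in all were called, and Kcnj16 had a limma adjusted p of 0.0561. The change of Kcne1 turned from -0.19 to 0.0217 with transcripts of at least 1000 nt only. The ratio of Kcnj10 to Kcnq1 went from 0.16 to -0.0543 without old replicate 1 (leaving out a sample gave 0.28 at the highest). The causes were not tested, beyond the fewer samples or genes that a setting uses. Kcnj16 was past the threshold in 10 of 18 alternatives (limma adjusted p 0.00490 to 0.104), Cldn11 in 3 (0.0378 to 0.172), Bsnd in 1 (0.0374 to 0.185) and the other 5 genes in 0. The median change of the 8 genes moved from its reported value by less than the spread between single samples (SD 0.19) in 18 alternatives. Leaving out a sample moves a group mean by less than that sample's own deviation, so this limit was easy to meet. With each sample left out, the median was 0.14 (without young replicate 2) to 0.41 (without young replicate 3). With 3 mixed samples per group, the confidence intervals given above limit which changes could be resolved.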
